A study of Mus musculus with 21 samples.

Results

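The 10 genes described here are a compact antioxidant program: Nfe2l2 and Keap1, which encode the transcription factor NRF2 and its repressor, and 8 genes that NRF2 is known to switch on, Slc7a11, Gclc, Gclm, Gsr, Gpx2, Txnrd1, Srxn1 and Hmox1. They were taken by symbol from a table of 38924 gene symbols. All 10 symbols were found and all 10 passed the filter on low counts, which left 15770 genes for testing. The lowest count of any of the 10 in any library was 65, for Slc7a11 in a control lung, so each was read well above the counting limit in every library.

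NRF2 is kept low in resting cells because KEAP1 hands it to a ubiquitin ligase for degradation. When oxidants or electrophiles modify cysteines of KEAP1, NRF2 escapes, enters the nucleus, pairs with a small MAF protein and binds antioxidant response elements, short DNA motifs near its target genes. The targets import cystine and make glutathione, recycle glutathione and thioredoxin with NADPH, break down haem and detoxify foreign compounds. The airway and alveolar lining of the lung depends on this system because it meets oxygen, smoke and inhaled particles. Because NRF2 is controlled mainly at the level of the protein, its mRNA is a poor gauge of its activity.

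The study profiled lung RNA of female A/J mice, a strain prone to lung tumours, at 22 weeks. NNK, a tobacco nitrosamine, was injected into the peritoneum as a single dose of 100 mg/kg, and mice without it received saline vehicle. LPS, the endotoxin of bacterial cell walls, was dripped into the nose weekly at 5 µg in 50 µL from a week after NNK. The dietary agents were silibinin (Sil), a flavonolignan of milk thistle, and indole-3-carbinol (I3C), a compound from cabbage plants, each at 20 µmol per g of diet. There were 7 groups of 3 libraries: Control (vehicle), NNK, LPS, and NNK_LPS, which received NNK and then LPS, plus 3 groups treated like NNK_LPS and fed Sil, I3C or the combination (called Sil, I3C and Sil_I3C below). The 5 groups given NNK are dissected tumours pooled from 3 mice per group, whereas Control and LPS are normal lung, so the carcinogen and the tumour tissue cannot be told apart. Whether the 3 libraries of a group come from separate mice is not given, so p-values measure the spread between libraries, part of which may be technical.

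For 4 of the genes, RefSeq sequence upstream of a start holds a match to an antioxidant response element or a related motif. These stretches are printed because they show the letters through which NRF2 is known to act on such genes, or letters related to them. The motif searched was TGACNNNGC, on both strands, in windows from 250 bases before to 50 after each RefSeq start (build GRCm38.p6). A related motif, TGANTCA, which reads the same on both strands and is bound by AP-1, was searched as well. Its longer form TGANTCAGC contains it and is bound by NRF2 with MAF. Capitals mark the match, and each stretch is read 5′ to 3′ on the strand of the gene.
Srxn1, chr2:152105274-152105515, plus strand: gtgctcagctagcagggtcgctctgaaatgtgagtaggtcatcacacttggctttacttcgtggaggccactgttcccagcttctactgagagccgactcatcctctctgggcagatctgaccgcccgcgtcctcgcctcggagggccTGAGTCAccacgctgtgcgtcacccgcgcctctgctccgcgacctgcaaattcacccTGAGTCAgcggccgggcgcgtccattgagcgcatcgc
Gclm, chr3:122245405-122245449, plus strand: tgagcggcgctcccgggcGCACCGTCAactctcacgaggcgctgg
Txnrd1, chr10:82859096-82859140, plus strand: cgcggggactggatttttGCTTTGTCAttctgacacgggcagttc
Nfe2l2, chr2:75704877-75704913, minus strand: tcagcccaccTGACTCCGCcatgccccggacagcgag
Srxn1 held TGANTCA at -102 and -45 bases from its start. The match at -45 was also TGANTCAGC, and that at -102 was not. A match of Srxn1 to TGACNNNGC lay 28 bases after the start and is not printed. Gclm matched TGACNNNGC on the other strand at -134, Txnrd1 on the other strand at -92 of 1 of its 3 starts, and Nfe2l2 on its own strand at -240. The windows of Keap1, Slc7a11 and Gpx2 held none of these letters, and those of Gclc, Hmox1 and Gsr were not analysed here. Over 32851 RefSeq windows, TGACNNNGC occurred in 12.4%, TGANTCA in 7.81% and TGANTCAGC in 1.19%, so a match to TGACNNNGC alone is common.

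Libraries held 13.3 to 25.3 M counts each. Depth went with the I3C diets: it was 15.9 to 24.7 M in I3C and 21.4 to 25.3 M in Sil_I3C, and at most 17.5 M in the other groups. Levels are in CPM, counts scaled to the normalised library size, comparable between libraries for a gene but not between genes, because longer transcripts collect more counts. Within a group the libraries are numbered 1 to 3 by column order, which is not always the number in their titles. By the counts of mt-Atp8 divided by those of mt-Atp6, 2 neighbouring mitochondrial genes, the libraries fell into 3 sets that the labels do not name. Set A (ratio 0.0206 to 0.0236) held Control, NNK and LPS 1 and 2, set B (0.0782 to 0.0876) held LPS 3, NNK_LPS, Sil and I3C 1, and set C (0.117 to 0.135) held I3C 2 and 3 and Sil_I3C. Only NNK versus Control and Sil versus NNK_LPS lie within 1 set. Where a comparison crosses sets and 1 set holds libraries of both groups, the value within that set is given beside it. The marker lists of lung epithelium were found in all groups. The summed level was 21100 CPM or more for 9 alveolar type 2 genes, 13700 CPM or more for 5 club cell genes and 281 CPM or more for 5 ciliated cell genes. No measured marker gene of any list was at 0 in all libraries of a group.

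**Figure D1:**
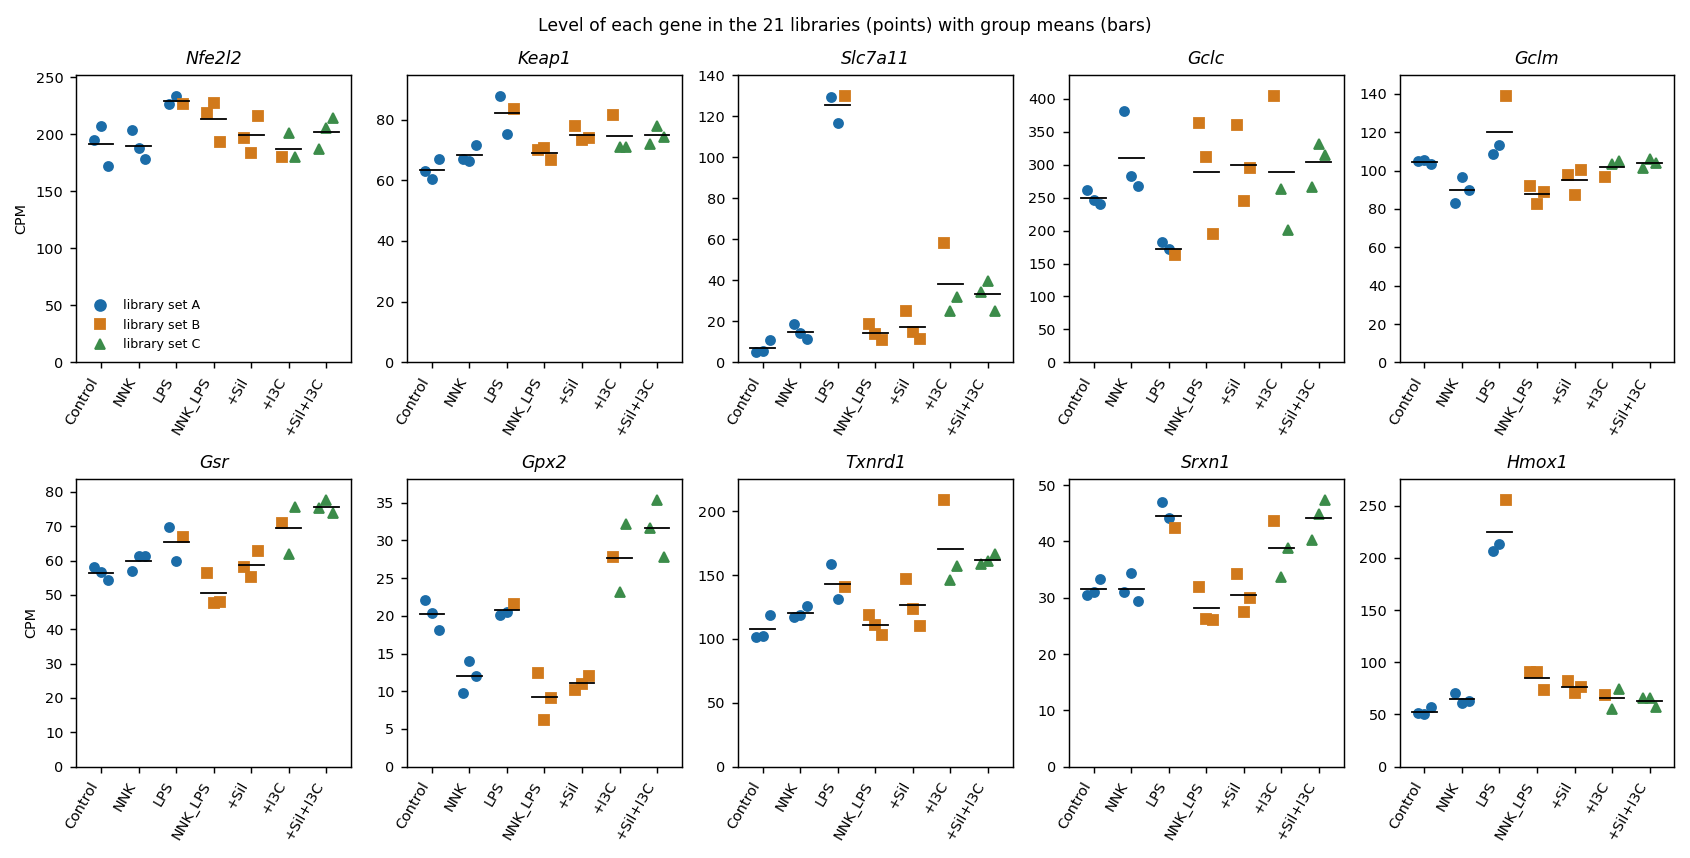
Level of each of the 10 genes in CPM (vertical axes, starting at 0) in the 21 libraries, by group; each point is a library, its shape and colour give the library set, and the bar is the mean of 3. Slc7a11 and Hmox1 stand highest in the 3 LPS libraries, and Gpx2 stands highest in the 6 libraries with I3C in the diet.

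Repeated LPS in normal lung raised the cystine importer and the haem-degrading enzyme of this program most. In LPS versus Control, 7 of the 10 genes were called higher and none lower, at an adjusted p under 0.05 by edgeR. Over all genes tested, 25.3% were called higher and 24.7% lower in this comparison, and the median log2 fold change was -0.02, against 0.32 over the 10 genes. The 7 were Slc7a11, Hmox1, Srxn1, Txnrd1, Keap1, Nfe2l2 and Gsr.

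Slc7a11 (chr3:49892526-50443614, minus strand), the transport subunit of the cystine/glutamate exchanger xCT, supplies the cysteine for glutathione. It stood at 4.93, 5.49 and 10.9 CPM in Control and at 129, 117 and 130 CPM in LPS. The groups were far apart, with no value between 10.9 and 117 CPM. The difference was 17.5-fold, a log2 fold change of 4.13 ± 0.39 (standard error, 3 libraries a group; edgeR adjusted p = 4.03e-07). Hmox1 (chr8:75093621-75100589, plus strand) encodes haem oxygenase 1, which opens the haem ring and releases iron, carbon monoxide and biliverdin. Its level was 51.0, 50.3 and 56.9 CPM in Control and 207, 213 and 255 CPM in LPS, again with no overlap. The log2 fold change was 2.09 ± 0.12 (edgeR adjusted p = 3.84e-09).

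The thioredoxin arm rose less. Srxn1 (chr2:152105516-152111376, plus strand) encodes sulfiredoxin, which repairs over-oxidised peroxiredoxins. It stood at 30.4, 31.1 and 33.3 CPM in Control and at 47.0, 44.1 and 42.4 CPM in LPS, a log2 fold change of 0.49 ± 0.11 (edgeR adjusted p = 0.00114). Txnrd1 (chr10:82833951-82897712, plus strand), cytosolic thioredoxin reductase, stood at 102, 102 and 119 CPM against 158, 131 and 141 CPM. Its log2 fold change was 0.41 ± 0.12 (edgeR adjusted p = 0.00972). In neither gene did a Control library reach the lowest LPS library.

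The sensor pair and glutathione reductase rose by the smallest amounts. Keap1 (chr9:21229730-21239361, minus strand) stood at 60.3 to 66.9 CPM in Control and 75.4 to 87.8 CPM in LPS, a log2 fold change of 0.38 ± 0.07 (edgeR adjusted p = 2.63e-04). Of its 4693 exon bases, 510 are shared with Gm16754 on the opposite strand, and since the strand setting of the counting is not given, their reads cannot be told apart. Nfe2l2 (chr2:75675513-75704641, minus strand) rose by 0.26 ± 0.09 on the log2 scale (edgeR adjusted p = 0.0197), and its 3 LPS libraries, 226 to 234 CPM, lay above all 3 Control libraries, 172 to 207 CPM. Gsr (chr8:33652523-33698163, plus strand), which returns oxidised glutathione to its reduced form with NADPH, rose by 0.22 ± 0.08 (edgeR adjusted p = 0.0362).

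Gclc and Gclm, the subunits of the ligase of glutathione synthesis, were not called in the fit of all 7 groups. Gclc was called when only Control and LPS were fitted, and when replicate number was added as a block. Glutamate-cysteine ligase makes the rate-limiting bond of glutathione and has a catalytic subunit, Gclc (chr9:77754535-77794485, plus strand), and a modifier subunit, Gclm (chr3:122245557-122270732, plus strand). Gclc stood at 261, 246 and 240 CPM in Control and at 183, 172 and 163 CPM in LPS. Its log2 fold change was -0.53 ± 0.23, with a 95% interval of -1.03 to -0.03 and an edgeR adjusted p of 0.0696, although all 3 LPS libraries lay below all 3 Control libraries. Gclm had a log2 fold change of 0.20 ± 0.08 (edgeR adjusted p = 0.051), and it was called by DESeq2 but not inside set A (0.10, edgeR adjusted p = 0.297). Of the 6291 exon bases of Gclm, 296 overlap Gm17494 on the opposite strand, and 244 of these also overlap Gm6061 on the same strand. Gpx2 (chr12:76792333-76795554, minus strand), a glutathione peroxidase of epithelial cells, stood at 18.1 to 22.1 CPM in Control and 20.1 to 21.6 CPM in LPS, a log2 fold change of 0.04 with a 95% interval of -0.36 to 0.44.

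Inside set A alone (Control against LPS 1 and 2), 6 of the 7 kept their call, with log2 fold changes of 4.11 for Slc7a11 and 2.00 for Hmox1. The call of Gsr was lost there (edgeR adjusted p = 0.0881), and it was also lost without Control 2, Control 3, LPS 1 or LPS 3. The call of Nfe2l2 was lost without Control 3 or without LPS 2. Other cells moved with these values. The summed level of 8 monocyte and interstitial macrophage genes was 318 to 380 CPM in Control and 994 to 1030 CPM in LPS, with all 8 called higher, and that of 8 neutrophil genes was 36.4 to 102 CPM against 841 to 1080 CPM, with 5 called higher. The 5 club cell genes fell from 36700 to 40000 CPM to 13700 to 17700 CPM, and all 5 were called lower. The alveolar macrophage genes summed to 632 to 728 CPM in Control and 341 to 437 CPM in LPS, with 5 of 7 called lower. Also called lower were 5 of 5 endothelial, 5 of 5 heart muscle and 4 of 4 fat genes. The part of this change in cell makeup in the levels of the 10 genes was not tested, and in such bulk RNA fewer cells of a type and less RNA per cell cannot be told apart.

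In tumours of mice given NNK without LPS, the share of the 10 genes called against normal lung was near that over all genes. Gpx2 was the only 1 of the 10 called, in the lower direction, and 4 had an unadjusted p under 0.05 (Gpx2, Slc7a11, Gclm and Hmox1). Over all genes tested, 6.46% were called higher and 6.63% lower in NNK versus Control. Gpx2 stood at 22.1, 20.4 and 18.1 CPM in Control and at 9.83, 14.1 and 12.0 CPM in the tumours. The groups did not overlap, and the log2 fold change was -0.76 ± 0.19 (edgeR adjusted p = 0.0182). The call was lost without Control 1, Control 2, NNK 1 or NNK 3, with adjusted p values up to 0.098. The summed level of the club cell genes was 18100 to 26000 CPM in these tumours, against 36700 to 40000 CPM in Control. Other lists shifted too: 6 of 8 neutrophil and 6 of 9 alveolar type 2 genes were called higher, and 5 of 5 heart muscle genes lower. The part of these shifts in the levels of Gpx2 and the other genes was not tested.

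Slc7a11 was 18.7, 14.3 and 11.4 CPM in the NNK tumours, each above the highest Control library. Its log2 fold change of 1.05 ± 0.38 did not pass (edgeR adjusted p = 0.0755), and it passed without Control 3, the Control library with the highest value (edgeR adjusted p = 0.0285). With Gpx2 that made 2 of the 10 genes without this library. Hmox1, at 60.5 to 70.3 CPM, and Gclc, at 268 to 381 CPM, also lay above all Control libraries without a call, with edgeR adjusted p of 0.11 and 0.377. Gclm, at 83.0 to 96.8 CPM, lay below the 104 to 105 CPM of Control without a call (-0.22 ± 0.08, edgeR adjusted p = 0.0924). With a term for set Gclm was called (edgeR adjusted p = 0.0448), and in the fit within set A it was not (edgeR adjusted p = 0.057).

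In NNK_LPS tumours versus Control, 1 of the 10 genes was called higher and 2 lower. Among all genes tested, 12.0% were called higher and 12.6% lower. Hmox1 stood at 91.1, 90.8 and 73.2 CPM, above all Control libraries, with a log2 fold change of 0.69 ± 0.12 (edgeR adjusted p = 9.13e-04). Gpx2 stood at 12.5, 6.17 and 9.05 CPM, below all Control libraries, with a log2 fold change of -1.13 ± 0.19 (edgeR adjusted p = 8.79e-04). Gclm, at 92.1, 82.5 and 88.7 CPM against 104 to 105 CPM, fell by 0.25 on the log2 scale (edgeR adjusted p = 0.0365), a call that was lost on leaving out any 1 of the 6 libraries. All Control libraries are in set A and all NNK_LPS libraries in set B, so the group and the set cannot be told apart in this comparison, and with a term for set none of the 10 genes was called. All 5 club cell genes were called lower here (17000 to 25300 CPM in NNK_LPS, 36700 to 40000 CPM in Control), as were the 5 heart muscle genes (76.1 to 142 CPM against 462 to 492 CPM). Higher were 8 of the 9 alveolar type 2 genes (49400 to 68600 CPM against 30700 to 36600 CPM) and 5 of the 8 monocyte and interstitial macrophage genes. The part of these shifts in the 3 calls was not tested.

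The program differed widely between LPS-treated normal lung and tumours from mice given NNK and LPS. In NNK_LPS versus LPS, 8 of the 10 genes were called lower and 1 higher. Over all genes tested, 20.9% were called lower and 17.3% higher, and the median log2 fold change was -0.02, against -0.41 over the 10 genes. Slc7a11 stood at 18.6, 13.6 and 11.2 CPM in NNK_LPS, a log2 fold change of -3.12 ± 0.36 from the 117 to 130 CPM of LPS (edgeR adjusted p = 7.11e-06). Hmox1 fell by 1.40 on the log2 scale (standard error 0.12, edgeR adjusted p = 2.40e-07) and Gpx2 fell by 1.17 (standard error 0.19, edgeR adjusted p = 1.54e-04).

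The 5 others called lower, Srxn1, Gclm, Gsr, Txnrd1 and Keap1, fell by 0.25 to 0.66. Gclc was the gene called higher, with a log2 fold change of 0.75 ± 0.24 (edgeR adjusted p = 0.0188). The call of Gclc was lost without LPS 3, NNK_LPS 1 or NNK_LPS 2, that of Txnrd1 without LPS 1, LPS 3, NNK_LPS 2 or NNK_LPS 3, and that of Keap1 without LPS 1 or NNK_LPS 3. The other 6 remained called whichever library was left out. LPS 3 and the 3 NNK_LPS libraries are all in set B. Against LPS 3 alone, with its spread assumed to be like that of the other groups, 6 of the 10 genes were called, Slc7a11, Hmox1, Gpx2, Srxn1, Gclm and Gsr, all lower in the tumours. The log2 fold changes there were -3.15 for Slc7a11 and -1.57 for Hmox1.

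The same weekly LPS went with no called change of the 10 genes inside tumours. In NNK_LPS versus NNK, 0 of the 10 were called by edgeR, 2 had an unadjusted p under 0.05 (Hmox1 and Gsr), and DESeq2 called 0. The share of all genes called in either direction was 0.0951%. Slc7a11 stood at 18.7, 14.3 and 11.4 CPM in NNK and at 18.6, 13.6 and 11.2 CPM in NNK_LPS. The groups overlapped almost fully, and the log2 fold change was -0.04 with a 95% interval of -0.80 to 0.73. Hmox1 stood at 70.3, 60.5 and 62.6 CPM in NNK and 91.1, 90.8 and 73.2 CPM in NNK_LPS, with no overlap and a log2 fold change of 0.40 ± 0.12 (edgeR adjusted p = 0.123). Without NNK_LPS 3, the NNK_LPS library with the lowest Hmox1 level, Hmox1 was called. Gsr had a log2 fold change of -0.24 ± 0.08 (edgeR adjusted p = 0.18).

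Whether LPS acted differently in the tumours than in normal lung was tested directly, as the difference between the log2 fold changes NNK_LPS versus NNK and LPS versus Control. For 6 of the 10 genes the difference was called, in each case with a smaller value in the tumours, and for none in the other direction. Of all genes tested, 14.4% had a called difference in this direction and 10.7% in the other. The difference was -4.17 ± 0.52 for Slc7a11 (edgeR adjusted p = 3.75e-05) and -1.69 ± 0.17 for Hmox1 (edgeR adjusted p = 4.64e-06). It was -0.66 for Srxn1, -0.53 for Txnrd1, -0.46 for Gsr and -0.36 for Keap1. Between 5 and 7 of the 10 genes were called when any 1 library was left out. Nfe2l2 and the 3 genes not called in lung, Gclc, Gclm and Gpx2, had no called difference.

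The monocyte and interstitial macrophage genes summed to 348 to 389 CPM in NNK and 425 to 543 CPM in NNK_LPS, far below the 994 to 1030 CPM of LPS-treated normal lung. The neutrophil genes summed to 83.5 to 569 CPM in NNK and 53.0 to 220 CPM in NNK_LPS, against 841 to 1080 CPM. In NNK_LPS versus LPS, 7 of 8 and 6 of 8 of these genes were called lower, and 7 of the 9 alveolar type 2 genes were called higher. Of the alveolar macrophage genes, 5 of 7 were called higher there and 1 lower, and of the club cell genes 4 of 5 higher. Their part in the difference between tumours and lung was not tested. NNK lies in set A and NNK_LPS in set B, so the group and the set cannot be told apart on the tumour side of this comparison.

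**Figure D2:**
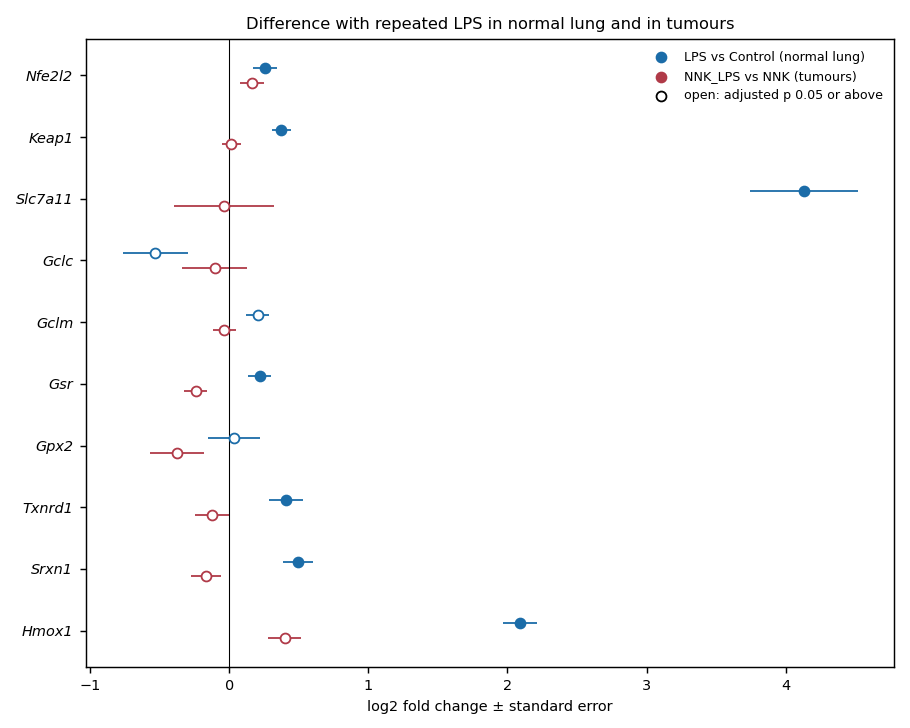
Log2 fold change with its standard error (horizontal axis) of each of the 10 genes with LPS in normal lung (LPS vs Control, blue) and in tumours (NNK_LPS vs NNK, red); filled points are called at an adjusted p under 0.05. Slc7a11 lies at 4.13 in lung and -0.04 in tumours, Hmox1 at 2.09 and 0.40.

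Silibinin in the diet went with no called change. In Sil versus NNK_LPS, 0 of the 10 genes were called by edgeR, 1 (Gsr) had an unadjusted p under 0.05, and DESeq2 called 0. Of all genes tested, 0% were called. The log2 fold changes of the 10 genes lay between -0.16 and 0.26. The intervals show what sizes this design could miss: the 95% interval was -0.16 to 0.68 for Gpx2, -0.50 to 1.01 for Slc7a11 and 0.03 to 0.39 for Gsr. All 6 libraries belong to set B.

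Indole-3-carbinol went with higher levels of glutathione recycling, thioredoxin and cystine import genes in the tumours. In I3C versus NNK_LPS, 5 of the 10 genes were called higher and none lower: Gpx2, Gsr, Txnrd1, Srxn1 and Slc7a11. Over all genes tested, 1.22% were called higher and 0.793% lower, and the median log2 fold change was 0.01, against 0.34 over the 10 genes.

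Gpx2 stood at 12.5, 6.17 and 9.05 CPM in NNK_LPS and at 27.8, 23.1 and 32.1 CPM in I3C. No library of the groups overlapped, and the lowest I3C library also exceeded the highest Control library, 22.1 CPM. The change was 3.00-fold, a log2 fold change of 1.58 ± 0.19 (edgeR adjusted p = 6.4e-04). It was called whichever library was left out, with log2 fold changes of 1.34 to 1.82. Gsr stood at 56.3, 47.7 and 48 CPM in NNK_LPS and at 71.1, 61.9 and 75.7 CPM in I3C, with a log2 fold change of 0.46 ± 0.08 (edgeR adjusted p = 0.0186).

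Txnrd1 stood at 119, 111 and 103 CPM in NNK_LPS and at 209, 146 and 157 CPM in I3C, a log2 fold change of 0.62 ± 0.12 (edgeR adjusted p = 0.0239). Srxn1 stood at 32, 26.3 and 26.1 CPM against 43.7, 33.8 and 38.8 CPM, a log2 fold change of 0.46 ± 0.11 (edgeR adjusted p = 0.0388). Slc7a11 stood at 18.6, 13.6 and 11.2 CPM against 58.2, 25 and 32 CPM, a log2 fold change of 1.40 ± 0.35 (edgeR adjusted p = 0.0492). In all 3 genes the first I3C library was the highest of the group, and no I3C library fell into the range of NNK_LPS.

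These 4 calls beside Gpx2 were each lost on leaving out any 1 of several libraries, while their log2 fold changes kept their direction. Without NNK_LPS 2, without I3C 1 or without I3C 3, Gpx2 was the only 1 of the 10 called. Without NNK_LPS 3, Srxn1 and Slc7a11 lost their call and Hmox1 was called. NNK_LPS 2 held the lowest Gpx2 level of the 21 libraries. I3C 1 shares set B with NNK_LPS, while I3C 2 and 3 are in set C. Set against NNK_LPS inside set B, I3C 1 alone had called log2 fold changes of 1.57 for Gpx2 (edgeR adjusted p = 0.0197) and 0.89 for Txnrd1 (edgeR adjusted p = 0.0163), and values of 1.99 for Slc7a11, 0.62 for Srxn1 and 0.47 for Gsr that were not called (edgeR adjusted p of 0.0537, 0.072 and 0.097). This single library is assumed there to vary like the other groups. The values inside the set were as large as or larger than those over all libraries for Txnrd1, Srxn1, Slc7a11 and Gsr, and that of Gpx2 was 1.57 against 1.58. They rest on I3C 1, the highest library of its group for Txnrd1, Srxn1 and Slc7a11, so the part of the library set was not tested.

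The sensor pair and the subunits of the ligase were not called with I3C. Gclc stood at 363, 311 and 194 CPM in NNK_LPS and at 404, 262 and 201 CPM in I3C, with a log2 fold change of 0.00 and a 95% interval of -0.50 to 0.50. Its libraries differed more within each group than the group means did. Over the 15 tumour libraries Gclc ran from 194 to 404 CPM, a 2.08-fold range, while Nfe2l2 ran over a 1.28-fold and Keap1 over a 1.23-fold range. Gclm, at 96.7, 103 and 105 CPM in I3C, lay above all NNK_LPS libraries with a log2 fold change of 0.21 ± 0.08 (edgeR adjusted p = 0.155). Nfe2l2 had a log2 fold change of -0.19 ± 0.09 (edgeR adjusted p = 0.233) and Keap1 one of 0.11 ± 0.07 (edgeR adjusted p = 0.386). Hmox1 pointed the other way from the called genes, with 68.5, 54.9 and 74.5 CPM in I3C and a log2 fold change of -0.37 ± 0.12 (edgeR adjusted p = 0.0932). DESeq2 called Hmox1 in this comparison.

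With both agents in the diet, 4 of the 10 genes were called higher than in NNK_LPS and none lower, over a background of 0.552% called higher and 0.805% lower. Gpx2 stood at 31.7, 35.4 and 27.8 CPM, a log2 fold change of 1.77 ± 0.19 (edgeR adjusted p = 1.27e-04). Srxn1 stood at 40.2, 44.8 and 47.3 CPM (0.65 ± 0.11, edgeR adjusted p = 0.00628), Gsr at 75.3, 77.6 and 73.7 CPM (0.58 ± 0.08, edgeR adjusted p = 0.00234) and Txnrd1 at 159, 161 and 166 CPM (0.55 ± 0.12, edgeR adjusted p = 0.0332). Each of these 12 values lay above all NNK_LPS libraries. Slc7a11, at 34.4, 39.8 and 25.1 CPM, also lay above them with a log2 fold change of 1.20 ± 0.35, but it was not called (edgeR adjusted p = 0.0981). DESeq2 called Slc7a11, and also Hmox1, whose log2 fold change was -0.43 ± 0.12 (edgeR adjusted p = 0.0757). The call of Txnrd1 was lost on leaving out any 1 of the 6 libraries, and without NNK_LPS 2 only Gpx2 and Gsr were called.

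Against Sil alone, the combination had 2 of the 10 genes called higher and none lower, where 0.146% of all genes tested were called higher and 0.120% lower. Gpx2 stood at 10.2, 10.9 and 12.1 CPM in Sil, and the combination exceeded it by a log2 fold change of 1.51 ± 0.19 (edgeR adjusted p = 7.15e-04). Srxn1 stood at 34.3, 27.4 and 29.9 CPM in Sil, and the log2 fold change was 0.53 ± 0.11 (edgeR adjusted p = 0.0439), a call that remained in only 1 of the 6 fits with a library left out. Sil_I3C lies in set C, and NNK_LPS and Sil lie in set B, so diet and set cannot be told apart in these comparisons alone, and with a term for set 0 of the 10 genes were called in either.

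The combination was not told apart from I3C alone. In Sil_I3C versus I3C, 0 of the 10 genes were called by edgeR, none had an unadjusted p under 0.05, DESeq2 called 0, and 0% of all genes tested were called by edgeR. The 95% interval of the log2 fold change was -0.20 to 0.58 for Gpx2, -0.04 to 0.41 for Srxn1 and -0.92 to 0.51 for Slc7a11, so changes of these sizes could be missed. Inside set C (I3C 2 and 3 against the 3 Sil_I3C libraries) 0 of the 10 were called as well, and the log2 fold change of Slc7a11 was 0.22 ± 0.34, against -0.21 over all libraries, so its direction is not settled. The difference between the I3C effect with Sil and that without Sil was also called for 0 of the 10 genes by edgeR and by DESeq2, with none at an unadjusted p under 0.05 and 0% of all genes called by edgeR. Its 95% interval was -0.64 to 0.50 for Gpx2 and -1.50 to 0.58 for Slc7a11.

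Averaged over the diets with and without Sil, 6 libraries with I3C were set against 6 without. In this comparison 5 of the 10 genes were called higher and 1 lower, against 1.60% higher and 2.10% lower over all genes tested. Gpx2 had a log2 fold change of 1.55 ± 0.14 (edgeR adjusted p = 4.77e-06), with 23.1 to 35.4 CPM in the libraries with I3C and 6.17 to 12.5 CPM in those without. It was the only 1 of the 10 whose ranges did not overlap. Slc7a11 followed with 1.17 ± 0.24 (edgeR adjusted p = 0.0164), Srxn1 with 0.50 ± 0.08 (edgeR adjusted p = 0.00209), Txnrd1 with 0.49 ± 0.09 (edgeR adjusted p = 0.00682) and Gsr with 0.41 ± 0.06 (edgeR adjusted p = 0.00108).

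Hmox1 was the gene called lower, at 54.9 to 74.5 CPM with I3C and 70.5 to 91.1 CPM without, a log2 fold change of -0.32 ± 0.08 (edgeR adjusted p = 0.0389). Its call was lost in 7 of the 12 fits that left out a library. The calls of Gpx2, Srxn1, Txnrd1 and Gsr remained in all 12, and that of Slc7a11 in 11, all but that without NNK_LPS 2 (edgeR adjusted p = 0.0541). With a term for set, Gpx2 (1.56 ± 0.26, edgeR adjusted p = 0.0317) and Txnrd1 (0.86 ± 0.14, edgeR adjusted p = 0.0208) were called, and the values of Slc7a11, Srxn1 and Gsr were 1.99, 0.72 and 0.45 without a call.

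Markers of other tissue moved with the I3C diets as well. The alveolar type 2 genes summed to 49400 to 68600 CPM in NNK_LPS and 42300 to 67000 CPM in Sil, against 37200 to 38400 CPM in I3C and 36300 to 37800 CPM in Sil_I3C, with 8 of the 9 genes called lower in the averaged comparison. The club cell genes summed to 17000 to 27000 CPM without I3C and 26200 to 35700 CPM with it, with 2 of 5 called higher. The 5 heart muscle genes summed to 67.8 to 209 CPM without I3C, 335 to 477 CPM in I3C and 99.6 to 240 CPM in Sil_I3C, with 4 called higher. The part of these shifts in the levels of the 10 genes was not tested.

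**Figure D3:**
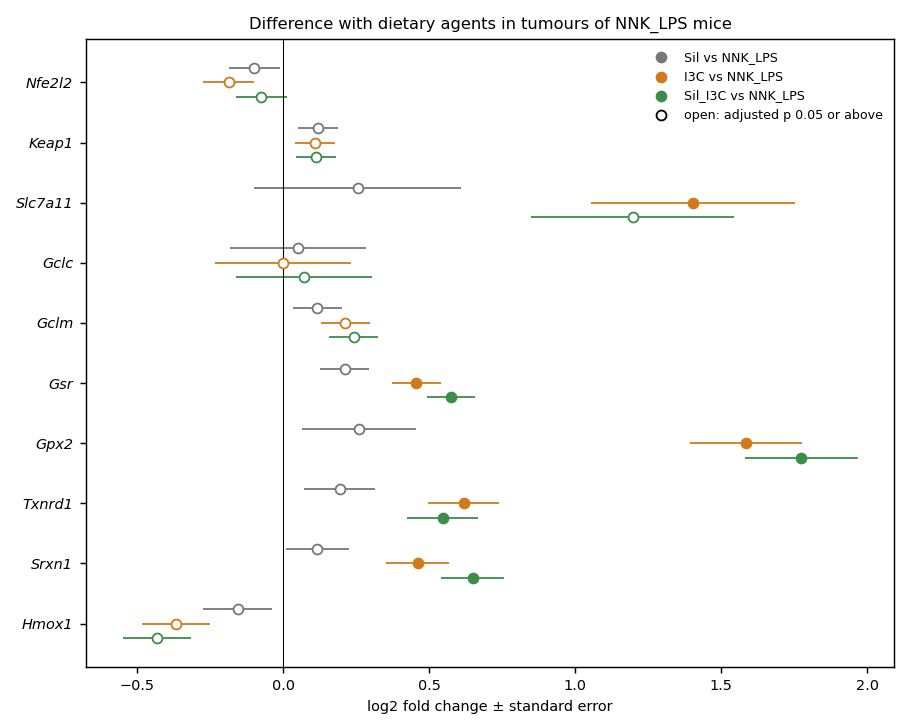
Log2 fold change from NNK_LPS with its standard error (horizontal axis) of each of the 10 genes in tumours of mice fed Sil (grey), I3C (orange) or both (green); filled points are called at an adjusted p under 0.05. Gpx2 lies at 1.58 with I3C and 1.77 with both, and none of the 10 is called with Sil alone.

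The order of the 7 group means differed between genes. LPS in normal lung was highest for Slc7a11 (125 CPM), Hmox1 (225 CPM), Gclm (120 CPM), Keap1 (82.2 CPM), Nfe2l2 (229 CPM) and Srxn1 (44.5 CPM), and lowest for Gclc (172 CPM). The I3C diets held the highest means of Gpx2 (31.6 CPM in Sil_I3C), Gsr (75.5 CPM in Sil_I3C) and Txnrd1 (170 CPM in I3C). The highest mean exceeded the lowest 17.6-fold for Slc7a11, 4.27-fold for Hmox1 and 3.43-fold for Gpx2, but no more than 1.80-fold for each of the other 7. For Nfe2l2, all neighbours in the order overlapped in their library values, and its extremes were 229 CPM in LPS and 187 CPM in I3C. For Slc7a11, LPS stood apart from I3C, the next group, and Control stood apart below NNK_LPS, while the 5 tumour groups between them each overlapped their neighbour. For Gpx2 the order had 2 breaks, between I3C and LPS and between Control and NNK.

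The genes highest in LPS-treated lung stood at different levels in the I3C diets. Srxn1 stood at 44.5 ± 2.3 CPM (SD, n = 3) in LPS and 44.1 ± 3.6 CPM in Sil_I3C. Slc7a11 stood at 125 ± 7.3 CPM in LPS and 33.1 ± 7.5 CPM in Sil_I3C. Hmox1 stood at 225 ± 26.5 CPM in LPS and 63.0 ± 5.1 CPM in Sil_I3C. Differences between these 2 groups were not tested.

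The other genes of the pathway were followed in a list of 51 genes, of which 50 were in the table with counts and 49 were tested. The list was drawn up with results of these data known, so its direction is not independent evidence. In LPS versus Control, 15 (30.6% of the 49) were called higher and 19 (38.8%) lower, against the 25.3% and 24.7% of all genes, with a median log2 fold change of -0.17. The haem and iron genes went with Hmox1: 4 of 4 were called higher, led by Fth1, the heavy chain of ferritin, from 1486 ± 137 CPM (SD, n = 3) to 5744 ± 536 CPM (log2 fold change 1.95 ± 0.09, edgeR adjusted p = 6.94e-10). Glutathione transferases went the other way, with 6 of 10 called lower and none higher, among them Gsta3 (143 ± 3.3 to 43.1 ± 1.7 CPM, log2 fold change -1.73 ± 0.13, edgeR adjusted p = 2.82e-08). Of the quinone, aldehyde and carbonyl enzymes, 7 of 10 were called lower and 2 higher, among them the epoxide hydrolase Ephx1 (-1.14 ± 0.08, edgeR adjusted p = 2.38e-08). Of the 7 genes of thioredoxin, peroxiredoxin and glutathione use, 3 were called higher and 4 lower, with a median log2 fold change of -0.39. Among the 3, Txn1, thioredoxin itself, rose by 1.02 ± 0.09 (edgeR adjusted p = 1.27e-07). Reads of Fth1 and Txn1 can also come from near-identical processed pseudogenes, so these values carry that uncertainty.

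In NNK versus Control, 2 of the 49 (4.08%) were called higher and 4 (8.16%) lower, shares near the 6.46% and 6.63% of all genes. Gsta3 fell by 0.65 on the log2 scale and Mgst1, a microsomal transferase, fell by 0.36, while the export pump gene Abcc4 rose by 0.57. Aldh3a1, an aldehyde dehydrogenase of epithelia, fell by 0.69. The call of Mgst1 remained in 3 and that of Aldh3a1 in 2 of the 6 fits with a library left out. In NNK_LPS versus Control, 7 (14.3%) were called higher and 8 (16.3%) lower, near the 12.0% and 12.6% of all genes. In NNK_LPS versus LPS, 14 (28.6%) were called in each direction, against 17.3% of all genes higher and 20.9% lower, with Fth1 at -1.69 and Ephx1 at 1.20. In NNK_LPS versus NNK, 0 of the 49 were called by edgeR, 12 had an unadjusted p under 0.05 and DESeq2 called 3. In Sil versus NNK_LPS these counts were 0, 3 and 0. The difference between the LPS effects in tumours and lung was called positive for 17 (34.7%) and negative for 8 (16.3%) of the 49, against 10.7% and 14.4% of all genes, and was -1.72 for Fth1 and 1.63 for Gsta3.

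With I3C averaged over Sil, 20 of the 49 (40.8%) were called higher and 1 (2.04%) lower, against 1.60% and 2.10% of all genes, with a median log2 fold change of 0.17. Nqo1, which encodes an enzyme that reduces quinones, had the smallest adjusted p of the 49 and stood at 4.96 ± 0.65 CPM (SD, n = 3) in NNK_LPS, 4.56 ± 0.40 CPM in Sil, 28.6 ± 7.1 CPM in I3C and 32.4 ± 6.2 CPM in Sil_I3C. Its log2 fold change of 2.68 ± 0.17 (edgeR adjusted p = 1.55e-07) exceeded that of each of the 10 core genes. Ces1g, a carboxylesterase, had the larger log2 fold change of 3.63, and Aldh3a1 had 1.87. Cbr3, Aox1, Cbr1 and Ephx1 rose by 0.70, 0.73, 0.41 and 0.24, and Ptgr1 was the gene that fell, by 0.43.

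Of the glutathione transferases, 7 of 10 were called higher with I3C: Gsta2 (1.77), Gsta1 (1.54), Gstm3 (1.33), Gstm1 (0.93), Gsta3 (0.93), Gstm2 (0.54) and Gsta4 (0.45). Gsta1 and Gsta2 are near-identical copies whose reads may be split by the counting. Gss, which completes glutathione, rose by 0.46, the export pump genes Abcc3 and Abcc1 by 0.47 and 0.44, and Blvrb, a biliverdin reductase, by 0.58. In the pentose pathway that supplies NADPH, Tkt rose by 0.35 and Taldo1 by 0.19. Of these 21 calls, 14 remained in all 12 fits with a library left out. Taldo1 was called in 1 of the 12, Gstm3 in 3, Ephx1 in 4, Ptgr1 in 8, Cbr1 in 10, and Tkt and Gsta4 in 11 each. With a term for set, 3 of the 21 were called, Nqo1 (2.51), Ces1g (3.40) and Aldh3a1 (1.94). Of the regulators and partners of NRF2, 0 of 9 were called by edgeR, 2 had an unadjusted p under 0.05 and DESeq2 called 0. In the separate comparisons, 13 of the 49 were called higher in I3C versus NNK_LPS, 13 in Sil_I3C versus NNK_LPS and 10 in Sil_I3C versus Sil, and none lower in these, and the shares of all genes called higher were 1.22%, 0.552% and 0.146%. In Sil_I3C versus I3C, 0 were called by edgeR and by DESeq2, and 8 had an unadjusted p under 0.05.

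Several of these enzymes, Nqo1 and Aldh3a1 among them, are also known targets of the aryl hydrocarbon receptor, which acid products of I3C activate. Its marker Cyp1a1 stood at 1.58 ± 1.76 CPM (SD, n = 3) in NNK_LPS, 139 ± 63.6 CPM in I3C and 130 ± 29.6 CPM in Sil_I3C. Its part in the levels of the 10 genes was not tested.

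**Figure D4:**
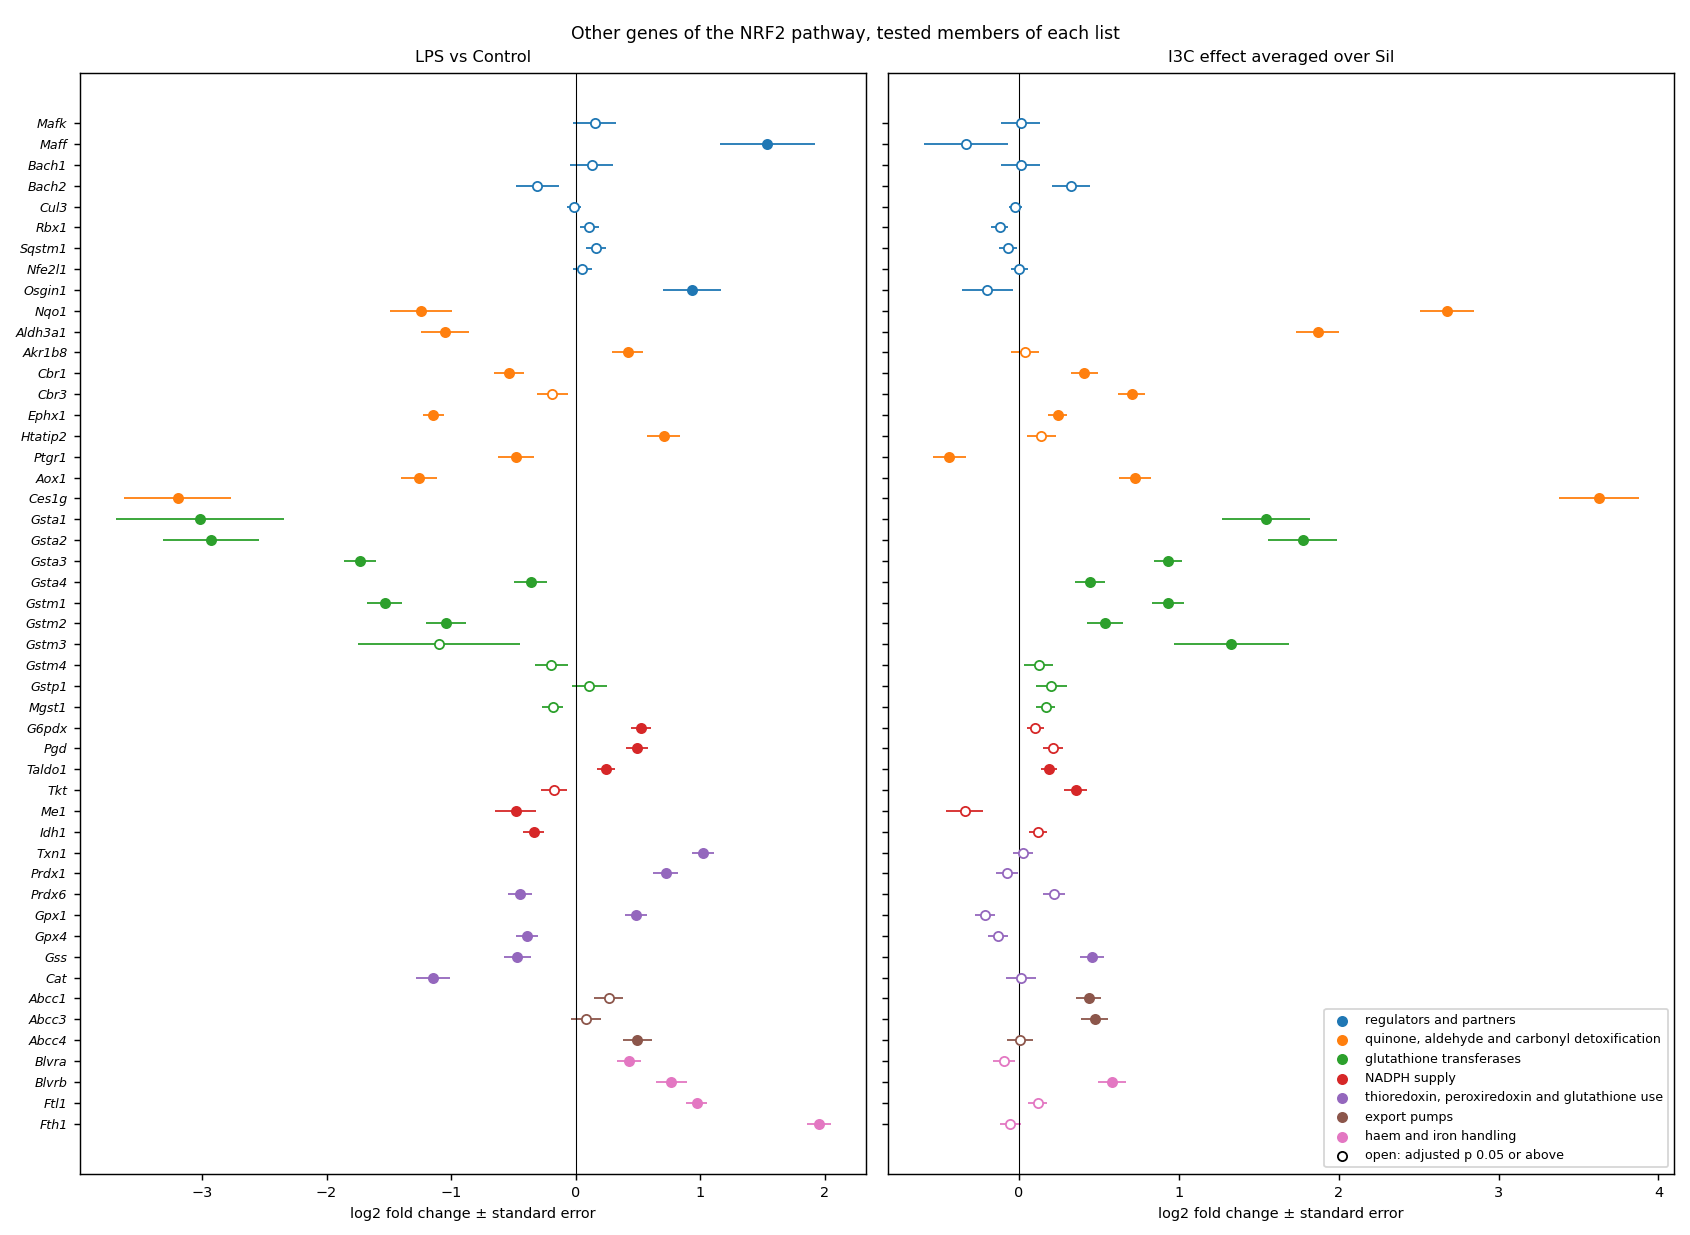
Log2 fold change with its standard error (horizontal axes) of the other tested pathway genes, coloured by list, in LPS versus Control (left) and with I3C averaged over Sil (right); filled points are called at an adjusted p under 0.05. Of the 10 glutathione transferases, 6 are called lower on the left and 7 are called higher on the right.

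The genes most like a member were sought by Pearson correlation of log2 CPM over the 21 libraries, as a description, since the libraries share groups and depth. For Hmox1 they were Cstb (r = 0.987), Slc39a1 (0.980) and Pgam1 (0.976), and for Slc7a11 they were Ncf4 (0.960), Ebi3 (0.957) and Fyb (0.956). For both genes the 3 LPS libraries lay far above the other 18 and weigh most in these values. For Gclc they were Dapk1 (r = 0.908), Secisbp2l (0.886) and Foxj3 (0.849), and for Gclm Ruvbl1 (0.902), Capsl (0.895) and Pold2 (0.894). Gclc and Gclm, subunits of 1 enzyme, thus had different nearest genes.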

How the data were processed

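Total RNA of mouse lung or lung tumours was sequenced after library preparation with a TruSeq kit, per the labels' protocols. The authors deposited whole-number read counts per gene symbol for 21 libraries, 3 in each of 7 groups given by the labels. The submitters' processing notes name the build mm10; which programs aligned and counted the reads, and with what annotation and strand setting, is not given in the sources used here. Depth was 13.3 to 25.3 M counts per library. The analysis used edgeR 4.0.16 in R 4.3.3, with trimmed mean of M-values scaling, filterByExpr with a minimum count of 10 (15770 genes kept), and a robust quasi-likelihood fit of all 7 groups, which left 14 residual degrees of freedom. The common biological coefficient of variation was 0.168. In each of 13 comparisons the Benjamini-Hochberg adjustment ran over the 15770 genes, and calls were made under an adjusted p of 0.05. Counts at an unadjusted p are given without a background, since the share of all genes at that threshold was not computed. Standard errors were taken from the F statistic, and 95% intervals from them with 14 degrees of freedom. The fit was tested on simulated data. Alternatives were relative log expression scaling, no filter, DESeq2 1.42.0, the compared groups alone, a replicate block, a term for library set, a fit within a set and leaving out each library. Library sets were split at mt-Atp8 to mt-Atp6 count ratios of 0.05 and 0.1.

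The 10 genes, the gene lists and the tests were chosen with earlier results of these data known. All 10 are named; of the wider list, a gene was named in a comparison if among the 4 called with the smallest adjusted p, or if called with I3C averaged over Sil. Likeness used log2 CPM with a prior count of 2, and the nearest 3 genes were reported for the 4 of the 10 genes with the highest r. Gene positions are from GENCODE (GRCm38, which mm10 denotes), and promoter windows from RefSeq (GRCm38.p6), which had an entry for 7 of the 10 genes.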

Additional observations from a re-analysis of the deposited data

Results flagged for a closer look

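Of the values above, 6 are marked because the effect of LPS differed between tumours and normal lung by a test of the difference itself (an interaction term in edgeR, adjusted over all genes tested). The log2 effect in tumours minus that in lung was -4.165 for Slc7a11 (adjusted p = 3.75e-05), -1.69 for Hmox1 (adjusted p = 4.64e-06) and -0.66 for Srxn1 (adjusted p = 0.00456). It was -0.53 for Txnrd1 (adjusted p = 0.0315), -0.46 for Gsr (adjusted p = 0.00882) and -0.36 for Keap1 (adjusted p = 0.0125). The difference of Txnrd1 lost its call in 5 of the 12 fits that left out a library, and those of the other 5 genes remained called in all 12.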

How the results depend on the processing

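The counts of the 10 genes called were recomputed under each alternative. Fitted to the compared groups alone, they were 2 in NNK versus Control (1 in the analysis above), 0 in I3C versus NNK_LPS (5), 0 in Sil_I3C versus NNK_LPS (4), 1 in Sil_I3C versus Sil (2) and 3 with I3C averaged over Sil (6); fewer libraries then set the spread. With a term for library set they were 2 in NNK versus Control, 0 in NNK_LPS versus Control (3), 3 in I3C versus NNK_LPS, 0 in Sil_I3C versus NNK_LPS, 0 in Sil_I3C versus Sil and 2 with I3C averaged over Sil. Within set B, I3C versus NNK_LPS gave 2. DESeq2 gave 2 in NNK versus Control. Apart from the set term, where diet and set overlap, the cause of these moves was not tested. Leaving out 1 library at a time gave 0 to 2 in NNK versus Control, 0 to 1 in NNK_LPS versus NNK, 1 to 5 in I3C versus NNK_LPS, 2 to 4 in Sil_I3C versus NNK_LPS and 1 to 2 in Sil_I3C versus Sil. It gave 5 to 7 in LPS versus Control, 2 to 3 in NNK_LPS versus Control, 7 to 9 in NNK_LPS versus LPS, 5 to 7 for the LPS difference, 4 to 6 with I3C averaged over Sil, and 0 in the other 3. Under the alternatives run, no log2 fold change of a named gene that was called, or of one of the 10 genes with an unadjusted p under 0.05, changed direction.

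The counts over all genes moved more. DESeq2 called 483 in NNK_LPS versus NNK (15 by edgeR), 1027 in I3C versus NNK_LPS (318), 665 in Sil_I3C versus NNK_LPS (214), 177 in Sil_I3C versus Sil (42), 72 in Sil_I3C versus I3C (0), 1264 with I3C averaged over Sil (584) and 21 for the I3C difference (0). The term for set left 24 in NNK_LPS versus Control (3876), 0 in NNK_LPS versus NNK, 3979 in NNK_LPS versus LPS (6024), 60, 2 and 0 in I3C versus NNK_LPS, Sil_I3C versus NNK_LPS and Sil_I3C versus Sil, and 22 with I3C averaged over Sil. The compared groups alone gave 5, 13, 9 and 115 in these last 4. Within set B, 3942 were called in NNK_LPS versus LPS and 45 in I3C versus NNK_LPS, and the replicate block gave 37 in NNK_LPS versus NNK and 68 in Sil_I3C versus Sil. Leaving out 1 library gave 404 (without Control 2) to 1840 in NNK versus Control (2064), 2227 (without NNK_LPS 2) to 4359 in NNK_LPS versus Control, 0 (without NNK 2) to 223 (without NNK_LPS 3) in NNK_LPS versus NNK, 21 (without NNK_LPS 2) to 794 (without NNK_LPS 1) in I3C versus NNK_LPS, 30 (without NNK_LPS 2) to 816 (without NNK_LPS 3) in Sil_I3C versus NNK_LPS, 21 (without Sil 1) to 64 (without Sil 2) in Sil_I3C versus Sil, and 174 (without NNK_LPS 2) to 1125 (without NNK_LPS 3) with I3C averaged over Sil. Scaling by relative log expression and dropping the filter left every count of the 10 genes within 1.5 times. With replicate number as a block the counts were 9 in LPS versus Control (7), with Gclc and, just under the threshold, Gclm added, and equal to the analysis above in the other 12. This number is the column order within a group and in several groups differs from the number in the titles. Pairing by the numbers in the titles was not tested. For libraries of different groups at the same place in this order, the median correlation of deviations was 0.016 over 63 pairs (-0.358 to 0.463), with 17 over 0.1. The order was not taken as a pairing. The lowest count of the 10 genes was 65, and each group held 3 libraries. The part of depth, which was higher in most libraries with I3C, was not tested.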
